A study of Mus musculus with 20 samples.

Results

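The genes described here are 45 genes of hepatic fatty acid oxidation, ketogenesis and PPARA target programs, picked by symbol from the 54532 genes of the deposited liver count table. All 45 reached a CPM (the count of a gene scaled to the total of its library) of at least 2 in at least 3 mice, and so did 12289 genes of the table in all. Of the 45 genes, 22 encode mitochondrial proteins, 10 peroxisomal proteins and 9 the cytochrome P450 4A (Cyp4a) omega-hydroxylases or acyl-CoA thioesterases (Acot), and the other 4 are Ppara, Acsl1, Vnn1 and Angptl4. Liver RNA was sequenced from 20 male C57BL/6 mice that diet had made obese before surgery, 1 library per mouse. High-fat diet (HFD) was given to all mice over 12 weeks, surgery followed, and for 8 weeks afterwards the animals ate chow or HFD. Surgery was a gastric bypass of the Roux-en-Y type (RYGB) or a sham operation. The chow groups are called Sham Chow and RYGB Chow and the others Sham HFD and RYGB HFD, with 5 mice in each group. The authors report that Sham HFD mice weighed more than every other group and describe the other groups as lean. The part of body weight in the results below was not tested. There was no group that had never received HFD, and ages were not used here. The authors describe the transcriptomes as those of the fasted state.

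Fatty acids that enter the hepatocyte are activated to acyl-CoA, and the long-chain acyl groups cross into mitochondria as carnitine esters, where beta-oxidation removes acetyl-CoA units through an acyl-CoA dehydrogenase, a hydratase, a hydroxyacyl-CoA dehydrogenase and a thiolase. Very long-chain and branched acyl groups are first shortened in peroxisomes by a parallel set of enzymes, and the omega-hydroxylases of the Cyp4a family oxidize the opposite end of the fatty acid. PPARA is the nuclear receptor that senses fatty acids in liver and activates many of these genes, together with genes for ketone body synthesis, which exports acetyl-CoA from liver during fasting.

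Total counts ran from 14604854 to 22537498 per mouse, with a median of 19056997. Levels are CPM scaled by TMM factors, listed for replicates 1 to 5 in that order. Summed levels of cell type markers are the exception and are CPM by total counts alone, without TMM factors. In each mouse the hepatocyte markers Alb, Ttr, Apoa1, Serpina1c and Hnf4a together made up at least 67480 CPM. The Sham HFD group held 2 libraries that stood apart. Sham HFD replicate 4 carried skeletal muscle transcripts (Acta1, Ckm and Myh4, summed to 176.8 CPM against 0 to 0.323 CPM in the other mice), and Sham HFD replicates 1 and 4 carried adipocyte transcripts (Adipoq, Plin1, Lep and Adig, summed to 3.36 and 3.15 CPM against 0 to 0.535 CPM in the others). Acta1 and Lep had 0 counts in the other 19 mice. Results are therefore also given without these 2 mice where a call changed. In a whole-liver library, fewer cells of a type and less RNA per cell cannot be told apart.

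On a scale of mean CPM per kb of exon over the 20 mice, the genes spanned from 920.4 for Acaa1b, a peroxisomal thiolase, to 3.26 for Pdk4, the kinase that shuts off pyruvate dehydrogenase. Acaa2, the mitochondrial thiolase, was next to the top at 569 CPM per kb, ahead of Cyp4a14 at 476 and Cyp4a10 at 311. The carnitine palmitoyltransferase Cpt1a, the entry step of mitochondrial oxidation, had 92.0 CPM per kb, and its regulator Ppara had 52.1. The 9 Cyp4a and Acot genes lay at both ends of this scale, since Acot8, Acot3, Acot2 and Cyp4a31 all had less than 10 CPM per kb.

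**Figure D1:**
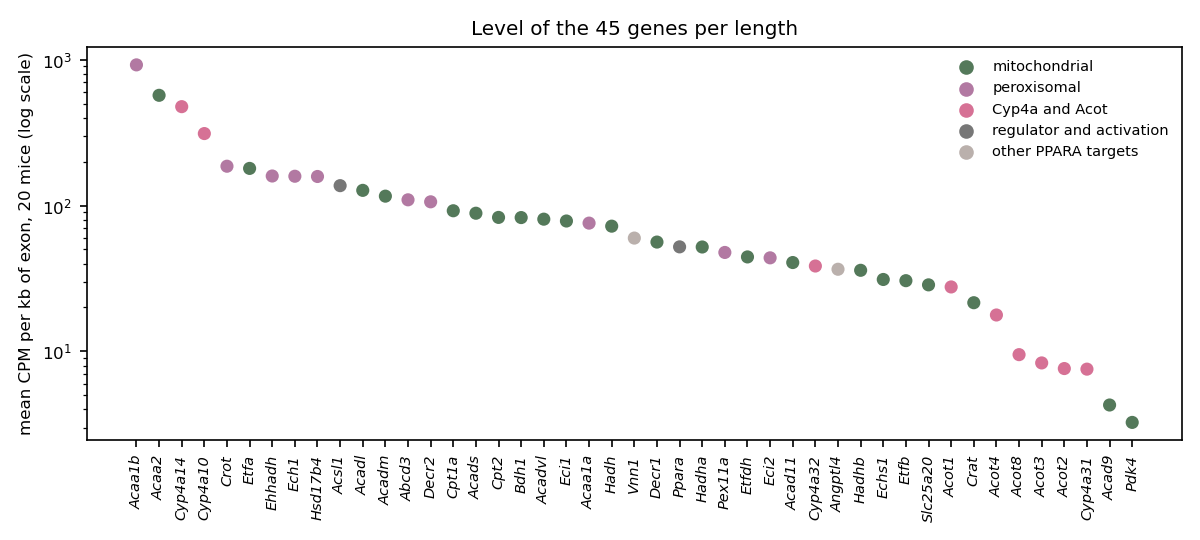
Mean level of each of the 45 genes over 20 mice, in CPM per kb of exon on a log scale, ordered from highest to lowest and colored by location. Acaa1b is highest at 920.4 and Pdk4 lowest at 3.26 CPM per kb.

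Most of the 45 genes did not pass the test in any one comparison. A gene passed with an adjusted p under 0.05 in edgeR's quasi-likelihood test. Fold changes are given for the second group over the first. In Sham Chow vs. RYGB Chow, 0 of 45 genes passed, where 0.057% of all tested genes did (0.0488% higher and 0.00814% lower). At an unadjusted p under 0.05, Cyp4a31 was higher and Acad9 lower, where 5.7% of all tested genes were higher and 5.09% lower, and DESeq2 and limma-voom also called 0 of 45. In Sham HFD vs. RYGB HFD, 3 genes rose and 6 fell, where 16.4% of all tested genes passed, 8.54% higher and 7.9% lower. In Sham Chow vs. Sham HFD, 4 rose and 6 fell, where 21.6% passed, 10.9% higher and 10.7% lower. In RYGB Chow vs. RYGB HFD, 1 rose and 1 fell, where 3.65% passed, 1.99% higher and 1.65% lower. The surgery by diet interaction, which is the HFD effect in RYGB mice less that in sham mice, was negative for 4 genes and positive for 0, where 5.06% passed, 2.58% negative and 2.48% positive. When libraries were scaled by their totals alone, the median log2 fold change of all genes was 0.12 in Sham Chow vs. Sham HFD. With this scaling 10 genes rose and 6 fell there, where 18.5% and 4.51% of all tested genes did. Between the HFD groups 2 rose and 12 fell, where 4.41% and 12.2% did. Without the 2 Sham HFD mice the counts were 2 rising and 6 falling between the HFD groups (5.62% and 6.2% of all tested genes), 3 and 4 between the sham groups (7.27% and 6.52%), 0 and 0 between the RYGB groups (1.61% and 1.57%), and 1 negative interaction (1.78%). Sham HFD enters both the surgery comparison on HFD and the diet comparison after sham surgery, so values for those contrasts are not independent. It is in neither group of RYGB Chow vs. RYGB HFD and enters that comparison only through the shared fit.

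**Figure D2:**
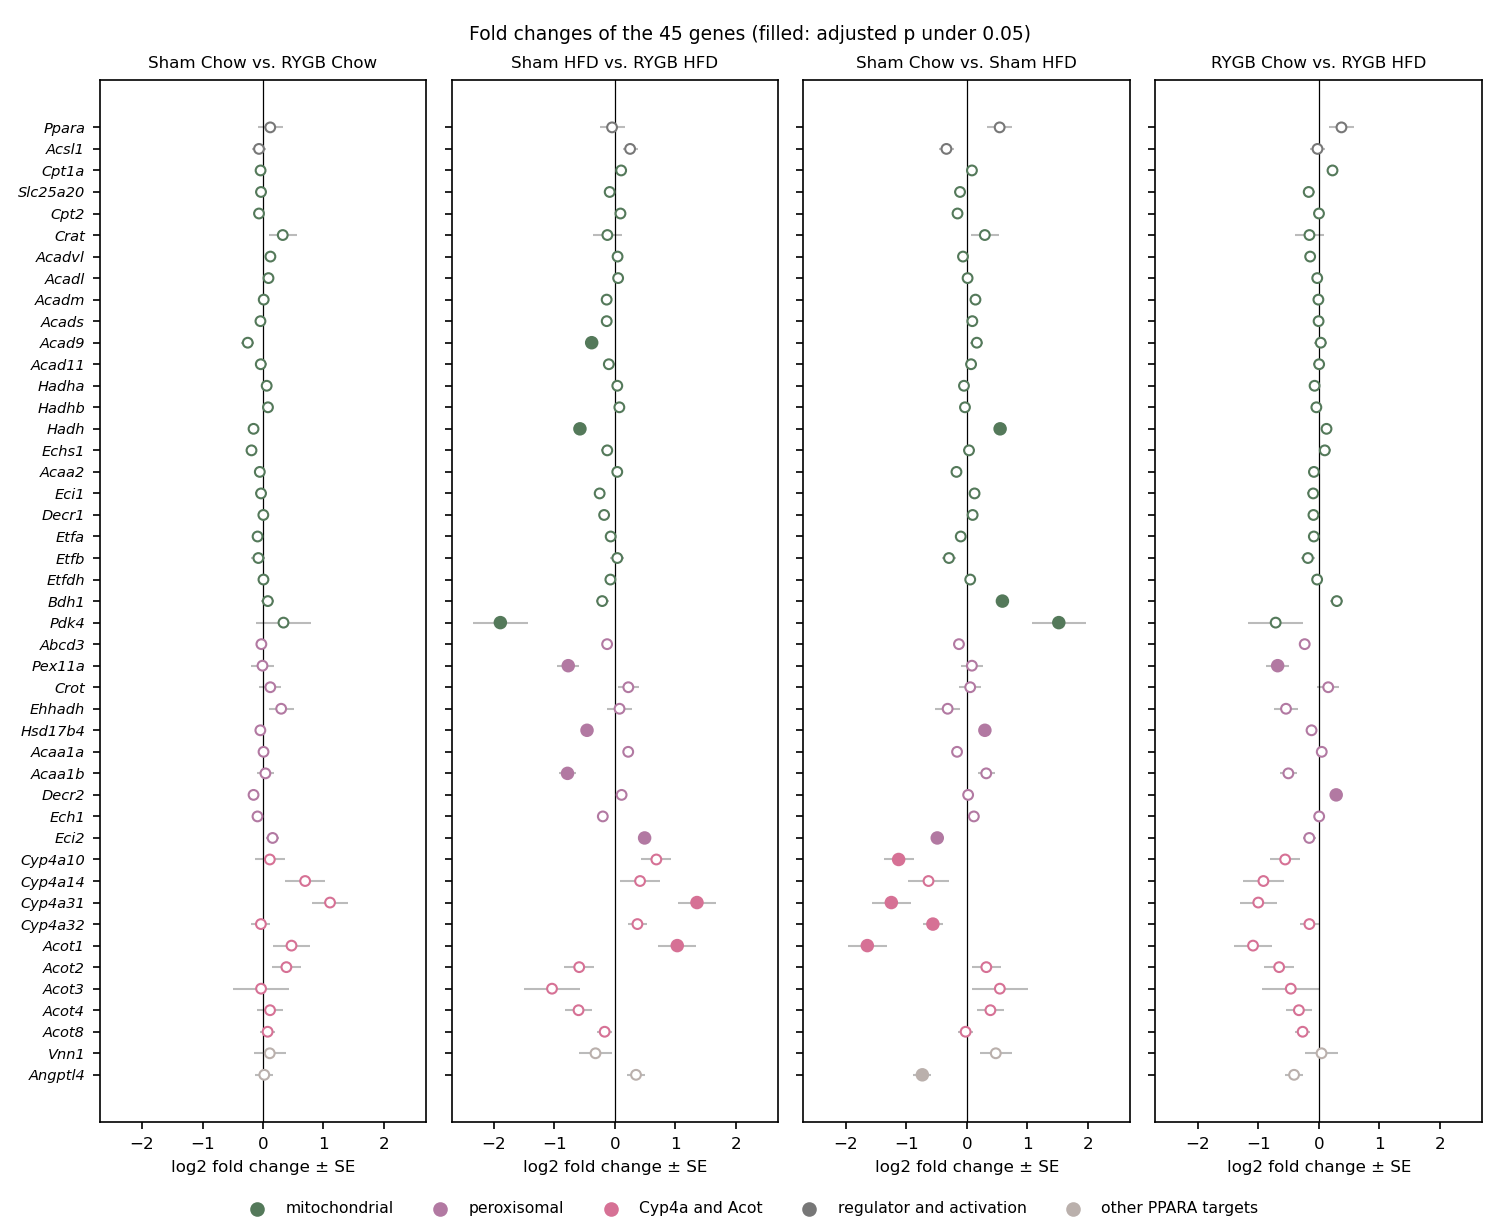
Log2 fold change with its SE for each of the 45 genes in the 4 comparisons, second group over first, colored by location. Filled points have an adjusted p under 0.05, none between the chow groups, 9 between the HFD groups, 10 between the sham groups and 2 between the RYGB groups.

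Medians by location, given as a description, lay farther from 0 for the Cyp4a and Acot genes than for the others. The median log2 fold change of the 22 mitochondrial genes lay between -0.094 and 0.064 in the 4 comparisons, and that of the 10 peroxisomal genes between -0.14 and 0.039. The 9 Cyp4a and Acot genes had medians of 0.12 for RYGB over sham on chow, 0.37 for RYGB over sham on HFD, -0.56 for HFD over chow after sham surgery and -0.55 for HFD over chow after RYGB. Over all tested genes the medians lay between -0.0047 and 0.0095. With Cyp4a10, Cyp4a31, Cyp4a32, Acot1 and Acot2, which share reads with close paralogs, taken out, the median of the other 4 genes was -0.39 for RYGB over sham on HFD and 0.19 for HFD over chow after sham surgery, opposite in sign. Acot3, kept among these 4, shares 14.3% of its 100-base transcript windows with other genes, and without it too the medians of Cyp4a14, Acot4 and Acot8 were -0.17 and -0.020. The median over all 9 genes for RYGB over sham on HFD was 0.052 without RYGB HFD replicate 5. Between mice of 1 group, the median coefficient of variation of the Cyp4a and Acot genes was 36.1% in Sham Chow and 27.5% in RYGB Chow, against 13.3% in Sham HFD and 39.2% in RYGB HFD. For the mitochondrial genes it was 11.6%, 8.13%, 5.39% and 8.69%, and over all tested genes 14.3%, 15.2%, 11.6% and 13.3% in the same order.

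Summed per mouse in replicate order, the 9 Cyp4a and Acot genes held 1885, 3268, 1508, 2812 and 2467 CPM in Sham Chow and 4032, 3015, 4388, 2508 and 2453 CPM in RYGB Chow. Their sums were 1329, 1283, 1557, 1575 and 1550 CPM in Sham HFD and 869, 1738, 1637, 2175 and 3224 CPM in RYGB HFD. All RYGB Chow mice were above all Sham HFD mice, while RYGB HFD mice overlapped every other group. RYGB Chow and Sham HFD differ in both surgery and diet, and this pair was not compared. Cyp4a14 and Cyp4a10 weigh most in this sum, with means of 1238 and 656.5 CPM over the 20 mice, so it mainly reflects these genes. The mitochondrial genes summed to 5781 to 6802, 6118 to 6246, 6173 to 6835 and 5781 to 6428 CPM in the same order of groups, and all groups overlapped. The peroxisomal genes summed to 4773 to 7528, 5784 to 6942, 6081 to 6697 and 4776 to 5769 CPM. Here all RYGB HFD mice were below all Sham HFD and all RYGB Chow mice. Acaa1b weighs most in this sum, with a mean of 1806 CPM over the 20 mice, and fell in Sham HFD vs. RYGB HFD (-0.78). Of the 10 genes, 5 had positive and 5 negative log2 fold changes there, with a median of -0.026.

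**Figure D3:**
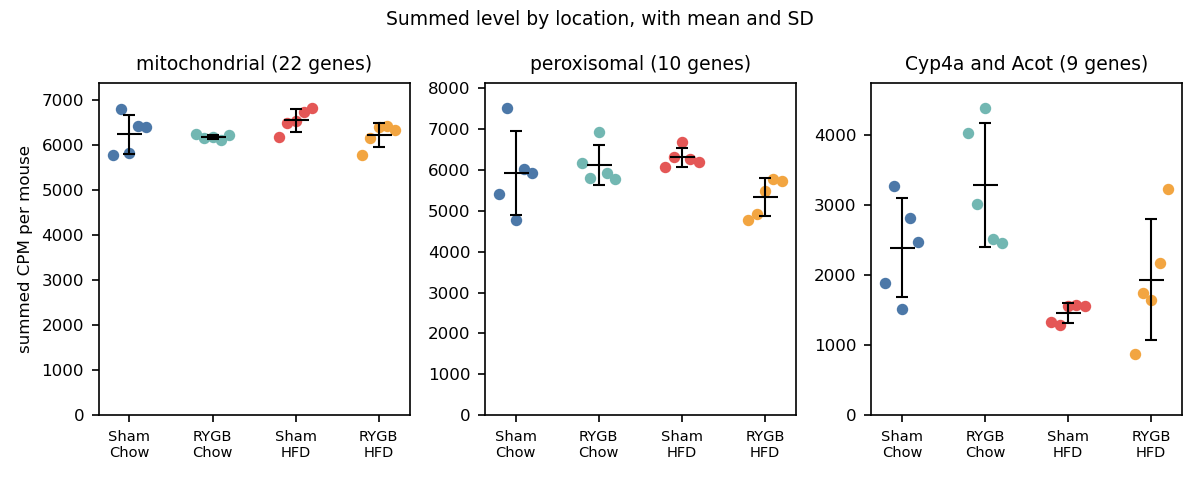
Summed CPM per mouse of the 22 mitochondrial, 10 peroxisomal and 9 Cyp4a and Acot genes, with points for mice and bars for mean and SD of 5 mice. The Cyp4a and Acot sums run from 869 to 3224 CPM in RYGB HFD and from 1283 to 1575 CPM in Sham HFD.

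Of the 4 genes listed under the carnitine shuttle (Cpt1a, Slc25a20, Cpt2 and Crat), 0 passed in edgeR in any comparison, and 1, Cpt1a, had an unadjusted p under 0.05. Cpt1a (ENSMUSG00000024900, chr19:3322334-3385733, plus strand in GRCm38, the build of all positions given) measured 682, 683, 641, 678 and 687 CPM in Sham Chow and 687, 618, 700.1, 683 and 591 CPM in RYGB Chow. On HFD it measured 669.8, 740.5, 670.1, 706 and 789 CPM after sham surgery and 750.3, 727, 769.5, 748 and 847 CPM after RYGB. All RYGB HFD mice were above all RYGB Chow mice, with a log2 fold change of 0.23 ± 0.068 (SE), adjusted p = 0.0658 (0.0139 with DESeq2), while the Sham HFD mice overlapped the Sham Chow mice. An exact permutation test over mice gave p = 0.00794, the smallest that 5 mice against 5 allow, as it does for every pair of groups that do not overlap.

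Among the 6 acyl-CoA dehydrogenase genes, which catalyze the first oxidation step for different chain lengths, 1 fell in Sham HFD vs. RYGB HFD. This was Acad9, which also takes part in assembly of respiratory complex I, at a log2 fold change of -0.38 ± 0.11 (SE), adjusted p = 0.0166. Without the 2 Sham HFD mice the change was -0.37 with an adjusted p of 0.0629, and 11.2% of the 100-base windows of Acad9 transcripts also occur in the gene Gm43079. Acadm, the medium-chain enzyme, stood at 375, 490.4, 403, 474 and 461 CPM in Sham Chow and 459, 443, 433, 422 and 464 CPM in RYGB Chow. It was at 459.5, 472, 484, 534 and 483 CPM in Sham HFD and 453, 422, 432, 449 and 457 CPM in RYGB HFD. The HFD groups did not overlap, with a log2 fold change of -0.14 ± 0.072 (SE), adjusted p = 0.208, and the chow groups overlapped. Groups that do not overlap were found for 12 of the 45 genes in Sham HFD vs. RYGB HFD, 1 higher and 11 lower, against 14.7% of all tested genes (7.25% higher and 7.43% lower).

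Hadh (ENSMUSG00000027984, chr3:131233419-131272101, minus strand), the 3-hydroxyacyl-CoA dehydrogenase for medium and short chains, passed in both comparisons that hold Sham HFD and for the interaction. Its level was 309, 324, 321, 376 and 324 CPM in Sham Chow and 306, 293, 259, 294 and 332 CPM in RYGB Chow. In Sham HFD it was 438, 489, 475, 504 and 517 CPM and in RYGB HFD 381, 311, 344, 304 and 283 CPM. All Sham HFD mice were above the mice of every other group, and the other 3 groups overlapped. It rose in Sham Chow vs. Sham HFD (log2 fold change 0.55 ± 0.085 (SE), adjusted p = 0.000149) and fell in Sham HFD vs. RYGB HFD (-0.58 ± 0.085 (SE), adjusted p = 0.000104). Both calls held when any 1 mouse was left out and in 9 other settings. The HFD effect differed between sham and RYGB mice by -0.42 ± 0.12 (SE), adjusted p = 0.0456, a call lost when any of 15 single mice was left out, with the highest adjusted p of 0.0872 without Sham HFD replicate 5. It was also lost without the 2 Sham HFD mice (-0.46, adjusted p = 0.0621). Hadha and Hadhb, the subunits of the trifunctional protein that does the same steps for long chains, had log2 fold changes of -0.047 and -0.030 in Sham Chow vs. Sham HFD and did not pass in any comparison. Echs1 and Acaa2, the short-chain hydratase and the thiolase, did not pass either, although all Sham HFD mice were below all Sham Chow mice for Acaa2 (-0.17 ± 0.075 (SE), adjusted p = 0.106). In that comparison 10 of the 45 genes had groups that do not overlap, 3 higher and 7 lower, against 16.5% of all tested genes (8.48% higher and 8.06% lower).

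None of the mitochondrial genes for unsaturated fatty acids and electron transfer passed. Decr1, the 2,4-dienoyl-CoA reductase, was lower in every RYGB HFD mouse than in any Sham HFD mouse (-0.18 ± 0.077 (SE), adjusted p = 0.117), and Eci1, an enoyl-CoA isomerase, had -0.25 ± 0.096 (SE), adjusted p = 0.0784. Etfa, Etfb and Etfdh, which pass electrons from the dehydrogenases to the respiratory chain, did not pass in any comparison. For Etfb, 65.2% of the transcript windows also occur in the gene Gm45233, so its counts are uncertain.

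Bdh1 (ENSMUSG00000046598, chr16:31422280-31458901, plus strand), the mitochondrial enzyme that interconverts the 2 ketone bodies acetoacetate and beta-hydroxybutyrate, measured 258, 315, 217, 288 and 244 CPM in Sham Chow and 233, 266, 340.1, 277 and 280.4 CPM in RYGB Chow. On HFD it measured 341, 391, 391, 424 and 442 CPM after sham surgery and 309, 374, 393, 339.5 and 304 CPM after RYGB. All Sham HFD mice were above all Sham Chow mice, whereas the HFD groups overlapped. It rose in Sham Chow vs. Sham HFD (log2 fold change 0.59 ± 0.11 (SE), adjusted p = 0.0009), and the value in RYGB Chow vs. RYGB HFD was 0.30 ± 0.11 (SE), adjusted p = 0.14.

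Pdk4 (ENSMUSG00000019577, chr6:5483351-5496309, minus strand), a PPARA target that limits entry of pyruvate into the citric acid cycle when fat is burned, had the largest fold changes of the mitochondrial genes at the lowest level. It measured 4.35, 21.6, 3.79, 4.07 and 4.67 CPM in Sham Chow and 10.2, 7.11, 12.4, 9.29 and 10.02 CPM in RYGB Chow. In Sham HFD it measured 13.4, 21.1, 24.2, 32.6 and 19.9 CPM and in RYGB HFD 5.17, 1.72, 4.44, 7.16 and 11.7 CPM. Sham Chow replicate 2 was within the range of the Sham HFD mice, its 4 group mates were below all RYGB Chow mice, and all Sham HFD mice were above all RYGB HFD mice. Pdk4 fell in Sham HFD vs. RYGB HFD (log2 fold change -1.89 ± 0.46 (SE), adjusted p = 0.00655), and the change was -1.72 with an adjusted p of 0.0197 without Sham HFD replicate 4, the mouse with muscle transcripts and the highest Pdk4 value. It rose in Sham Chow vs. Sham HFD (1.52 ± 0.45 (SE), adjusted p = 0.0191). That call was lost without Sham HFD replicate 4 (1.35, adjusted p = 0.0516), Sham Chow replicate 3 (1.34, adjusted p = 0.0536) or Sham Chow replicate 5 (1.39, adjusted p = 0.0523), and the rise was 2.40 with an adjusted p of 0.000125 without Sham Chow replicate 2. Without both Sham HFD mice the rise was 1.49 with an adjusted p of 0.054. The interaction was -2.23 ± 0.64 (SE), adjusted p = 0.0458, lost without both (-2.21, adjusted p = 0.08) and when any of 16 single mice was left out (adjusted p up to 0.0852) and -3.11 with an adjusted p of 0.000912 without Sham Chow replicate 2. The part of the muscle transcripts in these values was not tested beyond leaving that mouse out.

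**Figure D4:**
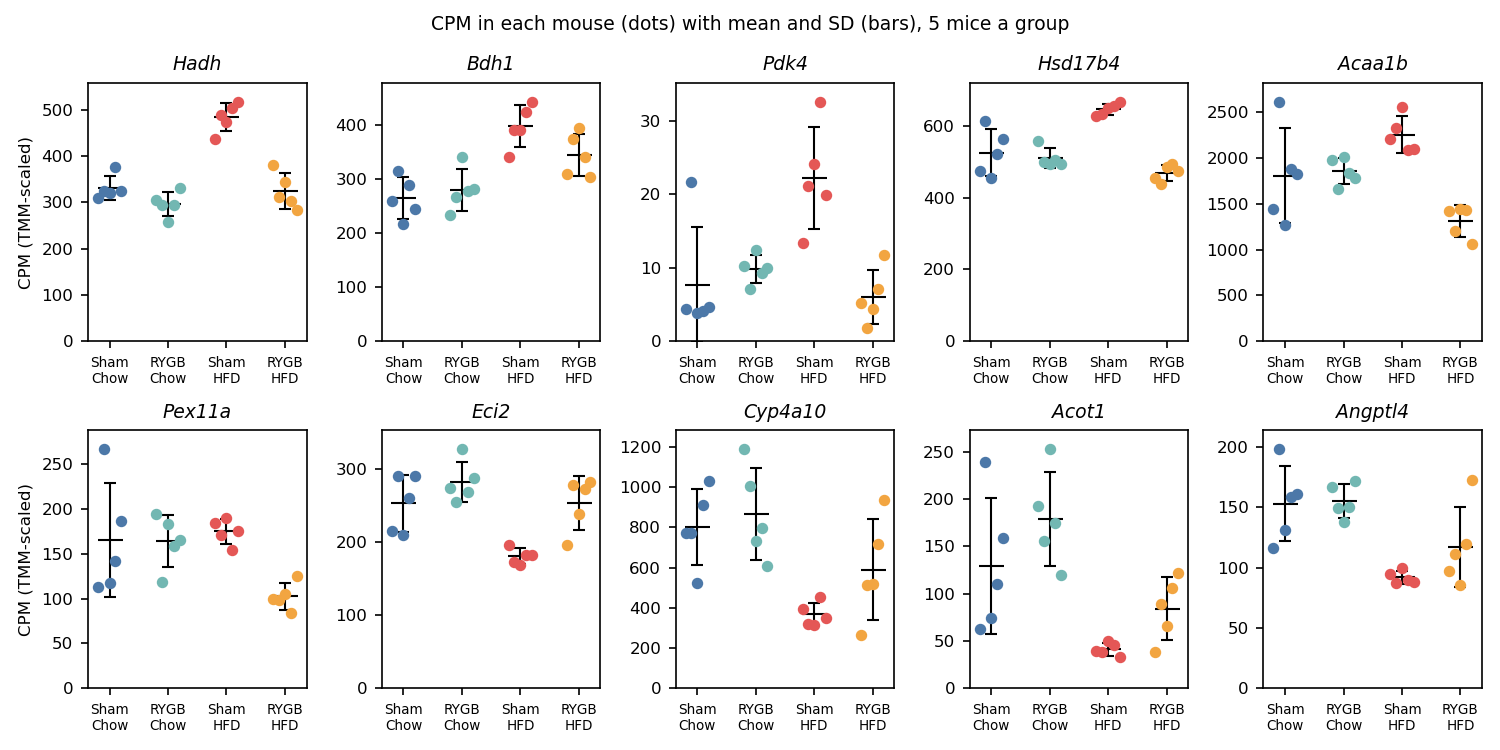
CPM of 10 of the genes in each mouse (points) with the mean and SD of 5 mice (bars, cut at 0), by group. Sham HFD mice stand above the other groups for Hadh and Hsd17b4 and below both chow groups for Eci2, Cyp4a10, Acot1 and Angptl4, and RYGB HFD mice stand below Sham HFD mice for Acaa1b and Pex11a.

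Peroxisomal genes rose and fell within 1 comparison. In Sham HFD vs. RYGB HFD, Eci2 rose and Hsd17b4, Acaa1b and Pex11a fell. Hsd17b4 (ENSMUSG00000024507), the D-bifunctional protein that carries out the middle steps of peroxisomal oxidation, measured 474, 614, 455, 523 and 565 CPM in Sham Chow and 559.6, 499, 494, 505 and 493 CPM in RYGB Chow. It measured 628, 634, 651, 655 and 667 CPM in Sham HFD and 456, 439, 486, 493 and 475 CPM in RYGB HFD. All Sham HFD mice were above the mice of the other 3 groups. The gene rose in Sham Chow vs. Sham HFD (log2 fold change 0.30 ± 0.075 (SE), adjusted p = 0.00767) and fell in Sham HFD vs. RYGB HFD (-0.46 ± 0.075 (SE), adjusted p = 0.000262). The interaction was -0.42 ± 0.11 (SE), adjusted p = 0.0263, and its adjusted p was 0.0501 without RYGB Chow replicate 1 and 0.0522 without Sham HFD replicate 5. Without the 2 Sham HFD mice it was -0.44 with an adjusted p of 0.0536.

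Ehhadh, the L-bifunctional protein that runs the same middle steps and is a classical PPARA target, did not pass in any comparison. Its values were 434, 714, 353, 517 and 429 CPM in Sham Chow and 592, 521, 953, 488 and 459.7 CPM in RYGB Chow. In Sham HFD they were 345, 369, 439, 378 and 434 CPM and in RYGB HFD 283, 349.7, 424, 447 and 568 CPM. The groups overlapped in every comparison, with RYGB Chow replicate 3 standing far above the rest. The log2 fold change was -0.32 ± 0.20 (SE), adjusted p = 0.277 in Sham Chow vs. Sham HFD and -0.54 ± 0.20 (SE), adjusted p = 0.152 in RYGB Chow vs. RYGB HFD.

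Acaa1b (ENSMUSG00000010651, chr9:119148023-119157093, minus strand) and Acaa1a (ENSMUSG00000036138, chr9:119339676-119350299, plus strand) encode the peroxisomal thiolases. Acaa1b measured 1438, 2610, 1266, 1883 and 1825 CPM in Sham Chow and 1977, 1665, 2011, 1837 and 1782 CPM in RYGB Chow. On HFD it measured 2207, 2328, 2561, 2083 and 2094 CPM after sham surgery and 1418, 1206, 1441, 1429 and 1055 CPM after RYGB. All RYGB HFD mice were below the mice of Sham HFD and of RYGB Chow. It fell in Sham HFD vs. RYGB HFD (log2 fold change -0.78 ± 0.14 (SE), adjusted p = 0.000805), and in RYGB Chow vs. RYGB HFD the value was -0.50 ± 0.14 (SE), adjusted p = 0.0539 (0.0138 with DESeq2 and 0.0479 with limma-voom). The interaction was -0.82 ± 0.20 (SE), adjusted p = 0.0218, which held when any 1 mouse was left out (adjusted p up to 0.0472) and without the 2 Sham HFD mice (0.0386). Acaa1a was higher in every RYGB HFD mouse than in any Sham HFD mouse but did not pass (0.22 ± 0.086 (SE), adjusted p = 0.0868). The Acaa1b to Acaa1a ratio of CPM was 4.49 to 7.17 in Sham Chow and 4.81 to 6.35 in RYGB Chow, and 6.7 to 8.91 and 3.13 to 4.28 in Sham HFD and RYGB HFD, given without a test because the pair was picked after its values were seen. Of the 100-base windows of Acaa1b transcripts, 22.6% also occur in Acaa1a, so reads in them could be split or dropped by the counting.

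Pex11a (ENSMUSG00000030545, chr7:79735957-79743131, minus strand), a membrane protein of peroxisome division, measured 113, 266, 118, 142 and 187 CPM in Sham Chow and 194, 118, 183, 159 and 166 CPM in RYGB Chow. It measured 184, 171, 189.8, 154 and 176 CPM in Sham HFD and 99.6, 98.8, 106, 83.7 and 125 CPM in RYGB HFD. RYGB HFD mice were all below Sham HFD mice, and overlapped RYGB Chow mice only through RYGB Chow replicate 2. It fell in Sham HFD vs. RYGB HFD (log2 fold change -0.77 ± 0.18 (SE), adjusted p = 0.00635) and in RYGB Chow vs. RYGB HFD (-0.68 ± 0.18 (SE), adjusted p = 0.0438). The second call was lost when any of 12 single mice was left out, with the highest adjusted p of 0.104 without RYGB HFD replicate 4. Without the 2 Sham HFD mice the change was -0.68 with an adjusted p of 0.0596. Sham HFD mice are in neither group of that comparison and enter it only through the shared fit. Pex11a and Decr2 were the 2 of the 45 genes that passed in that comparison.

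Eci2 (ENSMUSG00000021417, chr13:34977748-35027096, minus strand), an enoyl-CoA isomerase found in peroxisomes and mitochondria, moved the other way. It measured 215, 291, 210.2, 259.9 and 291 CPM in Sham Chow and 274, 256, 327, 268 and 288 CPM in RYGB Chow. It measured 196, 172, 168, 182 and 183 CPM in Sham HFD and 196, 278, 239, 273 and 283 CPM in RYGB HFD. All Sham HFD mice were below both chow groups, and RYGB HFD replicate 1 alone lay within the Sham HFD range. Eci2 fell in Sham Chow vs. Sham HFD (log2 fold change -0.49 ± 0.11 (SE), adjusted p = 0.00343) and rose in Sham HFD vs. RYGB HFD (0.49 ± 0.11 (SE), adjusted p = 0.00367), in both cases also without any 1 mouse or the 2 Sham HFD mice.

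Decr2 (ENSMUSG00000036775, chr17:26081208-26090337, minus strand), the peroxisomal 2,4-dienoyl-CoA reductase, measured 253, 284, 258, 305 and 304 CPM in Sham Chow and 251, 243, 225, 256 and 285 CPM in RYGB Chow. It measured 278, 298, 283, 281 and 284 CPM in Sham HFD and 269, 322, 305, 330.0 and 312 CPM in RYGB HFD. The RYGB groups overlapped through 1 mouse on each side. It rose in RYGB Chow vs. RYGB HFD (log2 fold change 0.29 ± 0.075 (SE), adjusted p = 0.0355). The call was lost when any of 8 single mice was left out (adjusted p up to 0.0892, without RYGB HFD replicate 4). It was also lost without the 2 Sham HFD mice (0.29, adjusted p = 0.0573), which are in neither group compared. Of the other peroxisomal genes, Abcd3, an acyl-CoA importer, was lower in all RYGB HFD than in all RYGB Chow mice without passing in edgeR (-0.23 ± 0.076 (SE), adjusted p = 0.0949, and 0.0341 with DESeq2), and Crot and Ech1 did not pass in edgeR in any comparison, while Ech1 fell between the HFD groups with DESeq2 (0.0304). Groups that do not overlap in RYGB Chow vs. RYGB HFD were seen for 4 of the 45 genes, 1 higher and 3 lower, against 5.05% of all tested genes (2.64% higher and 2.41% lower).

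The 4 omega-hydroxylases shared a sign in 3 of the comparisons. All 4 had negative log2 fold changes in Sham Chow vs. Sham HFD, and 3 fell. They were positive in Sham HFD vs. RYGB HFD, where 1 rose, and negative in RYGB Chow vs. RYGB HFD, where 0 passed in edgeR, 1 (Cyp4a31) in limma-voom and 3 had an unadjusted p under 0.05. Cyp4a10 (ENSMUSG00000066072, chr4:115518264-115533649, plus strand) measured 771, 771, 523, 913 and 1031 CPM in Sham Chow and 1188, 1008, 731, 797 and 609.6 CPM in RYGB Chow. It measured 395, 322, 314, 454 and 351 CPM in Sham HFD and 265, 514, 518, 718 and 936 CPM in RYGB HFD. Every Sham HFD mouse was below both chow groups, and the RYGB HFD mice spread from below Sham HFD to above some chow mice. Cyp4a10 fell in Sham Chow vs. Sham HFD (log2 fold change -1.13 ± 0.25 (SE), adjusted p = 0.00328). Between the HFD groups it had 0.69 ± 0.25 (SE), adjusted p = 0.0626, and 0.87 with an adjusted p of 0.00792 without RYGB HFD replicate 1.

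Cyp4a14 (ENSMUSG00000028715, chr4:115486200-115496142, minus strand), the most abundant omega-hydroxylase per length, measured 873, 1923, 707, 1474 and 1024 CPM in Sham Chow and 2336, 1601, 3051, 1290 and 1449 CPM in RYGB Chow. It measured 633, 678, 876, 791 and 891 CPM in Sham HFD and 353, 927, 791, 1139 and 1952 CPM in RYGB HFD. The spread within groups was wide, and only RYGB Chow and Sham HFD did not overlap, a pair that was not compared. Cyp4a14 did not pass in Sham Chow vs. Sham HFD (-0.63 ± 0.34 (SE), adjusted p = 0.181) or in RYGB Chow vs. RYGB HFD (-0.91 ± 0.34 (SE), adjusted p = 0.139), where it was -1.28 with an adjusted p of 0.0306 without RYGB HFD replicate 5.

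Cyp4a31 (ENSMUSG00000028712, chr4:115563649-115579015, plus strand), at a much lower level, measured 14.9, 16.5, 12.8, 17.7 and 19.6 CPM in Sham Chow and 26.1, 34.04, 57.02, 27.96 and 30.2 CPM in RYGB Chow. It measured 6.78, 5.92, 7.6, 5.99 and 7.85 CPM in Sham HFD and 4.19, 14.7, 17.8, 22.6 and 28.8 CPM in RYGB HFD. All RYGB Chow mice were above all Sham Chow mice, all Sham HFD mice were below all Sham Chow mice, and 4 of 5 RYGB HFD mice were above all Sham HFD mice. In Sham Chow vs. RYGB Chow it was the 1 gene of the 45 with groups that do not overlap, against 1.33% of all tested genes (0.74% higher), and its log2 fold change was 1.11 ± 0.30 (SE), adjusted p = 0.191. It fell in Sham Chow vs. Sham HFD (-1.25 ± 0.32 (SE), adjusted p = 0.00882), a call lost without the 2 Sham HFD mice (-1.18, adjusted p = 0.0524), and rose in Sham HFD vs. RYGB HFD (1.36 ± 0.32 (SE), adjusted p = 0.00555). Cyp4a32 fell in Sham Chow vs. Sham HFD (-0.56 ± 0.16 (SE), adjusted p = 0.0161), and had -0.55 with an adjusted p of 0.066 without the 2 Sham HFD mice. Cyp4a10, Cyp4a31 and Cyp4a32 lie side by side on chromosome 4 and share 12.7%, 8.22% and 20.1% of their transcript windows with other genes, mostly each other.

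The acyl-CoA thioesterases hydrolyze acyl-CoA back to free fatty acid, and Acot1 (cytosolic), Acot2 (mitochondrial), Acot3 and Acot4 (peroxisomal) lie in 1 cluster on the plus strand of chromosome 12. The 250 bases before the transcription start of 3 of them are shown (RefSeq, GRCm38.p6, plus strand). They were picked because in Sham HFD vs. RYGB HFD Acot1 had a positive and Acot2 and Acot4 a negative log2 fold change. Of these only Acot1 passed in edgeR, and between the RYGB groups all had negative values. Capitals mark a match to the direct repeat of the PPARA and RXR element.
Acot2 at chr12:83987611-83987860: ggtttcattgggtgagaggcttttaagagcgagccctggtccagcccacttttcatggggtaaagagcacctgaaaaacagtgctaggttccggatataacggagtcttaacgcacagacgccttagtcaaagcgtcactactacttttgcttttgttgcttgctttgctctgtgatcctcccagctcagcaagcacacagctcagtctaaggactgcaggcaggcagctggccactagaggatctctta
Acot1 at chr12:84009252-84009501: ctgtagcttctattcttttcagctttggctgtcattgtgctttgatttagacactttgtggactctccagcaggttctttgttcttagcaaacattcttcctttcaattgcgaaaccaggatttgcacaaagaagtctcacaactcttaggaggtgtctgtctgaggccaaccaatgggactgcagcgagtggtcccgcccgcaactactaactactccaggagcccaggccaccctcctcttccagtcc
Acot4 at chr12:84038129-84038378: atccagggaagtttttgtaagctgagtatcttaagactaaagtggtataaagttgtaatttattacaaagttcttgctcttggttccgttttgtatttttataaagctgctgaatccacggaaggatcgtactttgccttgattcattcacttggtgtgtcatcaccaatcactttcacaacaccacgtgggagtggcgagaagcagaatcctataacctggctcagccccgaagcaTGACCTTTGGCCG
The repeat was searched on both strands as NGGNCA, then any 1 base, then AGGNCA. It occurred in 0.694% of 32851 mouse promoters of this length and in 1 of the 35 of the 45 genes that had a promoter sequence, Acot4, where it lies on the reverse strand. The half-site AGGTCA, which overlaps that match in Acot4, occurred in 14.0% of the promoters and in those of Acadm, Acadvl, Acot4, Cpt1a and Echs1. Such a match is a description of letters, and its absence from a window says nothing of binding elsewhere.

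Acot1 (ENSMUSG00000072949, chr12:84009490-84018371, plus strand) measured 62.2, 239, 74.7, 110.3 and 159 CPM in Sham Chow and 192, 155, 252, 175 and 119 CPM in RYGB Chow. It measured 39.02, 38.1, 50.3, 45.8 and 32.97 CPM in Sham HFD and 38.4, 89.2, 65.8, 106 and 122 CPM in RYGB HFD. Each of the Sham HFD mice was below both chow groups, and RYGB HFD replicate 1 was the only mouse of its group within the Sham HFD range. Acot1 fell in Sham Chow vs. Sham HFD (log2 fold change -1.65 ± 0.32 (SE), adjusted p = 0.00125) and rose in Sham HFD vs. RYGB HFD (1.03 ± 0.32 (SE), adjusted p = 0.0299). The rise lost its call when Sham HFD replicate 1, 2 or 5 or RYGB HFD replicate 2, 4 or 5 was left out, with values from 0.86 to 1.00 and adjusted p up to 0.0867, and without the 2 Sham HFD mice (1.05, adjusted p = 0.0975). With limma-voom neither Acot1 (0.0527) nor Cyp4a31 (0.0791) passed in that comparison, so that 0 Cyp4a and Acot genes rose in it. In RYGB Chow vs. RYGB HFD it had -1.09 ± 0.32 (SE), adjusted p = 0.0594 (0.0326 with DESeq2 and 0.0486 with limma-voom).

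Acot2, by contrast, measured 16.8, 18.2, 21.5, 16.8 and 22.01 CPM in Sham HFD and 11.5, 11.3, 14.01, 12.2 and 14.3 CPM in RYGB HFD. Every RYGB HFD mouse was below every Sham HFD mouse, although the change did not pass (-0.59 ± 0.24 (SE), adjusted p = 0.104). Acot3 (-1.04 ± 0.47 (SE), adjusted p = 0.137) and Acot4 (-0.60 ± 0.22 (SE), adjusted p = 0.0628) had negative values in the same comparison, where Acot4 passed with DESeq2 (0.0276) and limma-voom (0.0459), and Acot8, another peroxisomal thioesterase, had -0.17 ± 0.12 (SE), adjusted p = 0.386. The Acot1 to Acot2 ratio of CPM was 5.83 to 10.3 in Sham Chow and 7.56 to 11.5 in RYGB Chow, and 1.5 to 2.73 and 3.33 to 8.69 in Sham HFD and RYGB HFD, so all Sham HFD mice were below all other mice. No test is given, as the pair was picked after its values were seen. Acot1 and Acot2 share 12.5% and 17.1% of their transcript windows with other genes, mostly each other. In RYGB Chow vs. RYGB HFD all 9 Cyp4a and Acot genes had negative log2 fold changes, 6 with an unadjusted p under 0.05, where 8.98% of all tested genes were lower at that p. With an adjusted p under 0.05 there were 0 in edgeR, 1 in DESeq2 (2.86% of all genes lower) and 2 in limma-voom (1.47%).

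**Figure D5:**
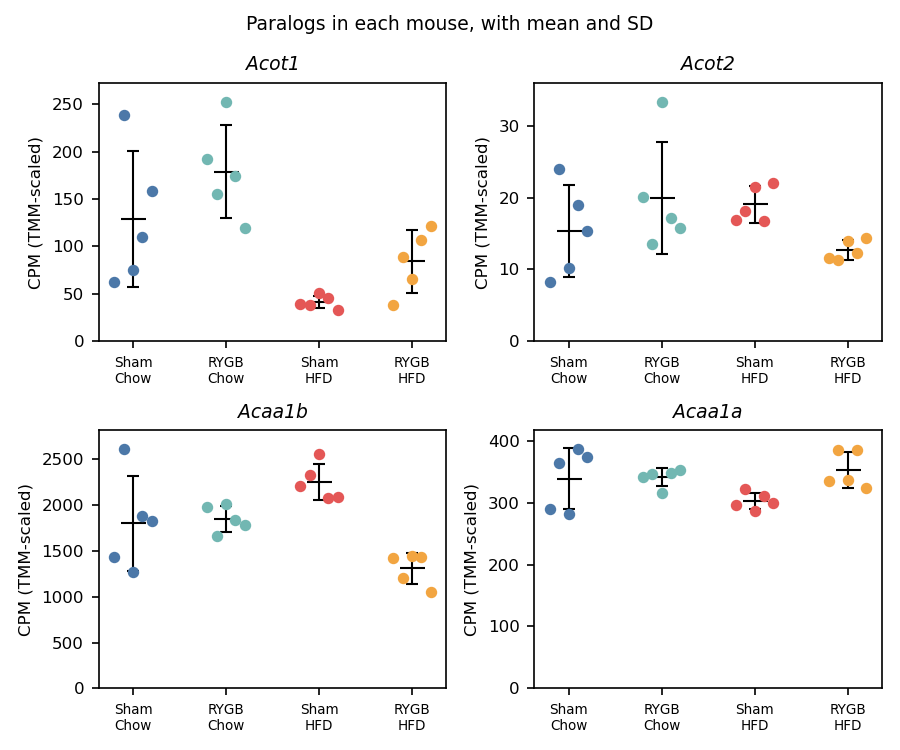
CPM of the paralogs Acot1 and Acot2 and of Acaa1b and Acaa1a in each mouse (points), with mean and SD of 5 mice (bars). In Sham HFD, Acot1 lies below both chow groups and Acot2 within their range, and in RYGB HFD, Acaa1b lies below Sham HFD and Acaa1a above it.

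The receptor and the remaining targets did not share 1 pattern. Ppara (ENSMUSG00000022383, chr15:85734983-85802819, plus strand) measured 165, 239, 125, 147 and 131 CPM in Sham Chow and 228, 152, 192, 215 and 89.5 CPM in RYGB Chow. It measured 282, 209, 217, 222 and 245 CPM in Sham HFD and 265, 169, 263, 238 and 201 CPM in RYGB HFD. The groups overlapped in all comparisons, and its log2 fold change in Sham Chow vs. Sham HFD was 0.54 ± 0.21 (SE), adjusted p = 0.0643, reaching 0.73 with an adjusted p of 0.0143 without Sham Chow replicate 2. Without RYGB Chow replicate 5, a mouse in neither group compared, the value stayed at 0.54 with an adjusted p of 0.0213. Ppara passed in this comparison with DESeq2 (0.0352), library size scaling (0.0347) and the 2 groups alone (0.0258). Acsl1, the acyl-CoA synthetase that starts the pathway, had -0.34 ± 0.12 (SE), adjusted p = 0.0545 in the same comparison (0.0331 with DESeq2). Vnn1, a pantetheinase long known as a PPARA target, measured 89.95, 257, 71.6, 114 and 97.1 CPM in Sham Chow and 129, 78.2, 194, 159 and 120.1 CPM in RYGB Chow. It measured 175, 174, 197, 162 and 169 CPM in Sham HFD and 97.9, 147, 176, 137 and 145 CPM in RYGB HFD. Apart from Sham Chow replicate 2, all Sham Chow mice were below all Sham HFD mice, and the log2 fold change of 0.48 ± 0.27 (SE), adjusted p = 0.207 in Sham Chow vs. Sham HFD became 0.92 with an adjusted p of 0.00315 without Sham Chow replicate 2.

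Angptl4 (ENSMUSG00000002289, chr17:33773750-33781830, minus strand), a secreted inhibitor of lipoprotein lipase that is also made by adipocytes, measured 117, 198, 131, 159 and 161 CPM in Sham Chow and 167, 149.8, 138, 151 and 172 CPM in RYGB Chow. It measured 94.8, 87.5, 99.9, 89.7 and 88.1 CPM in Sham HFD and 97.6, 111, 85.3, 119.8 and 172 CPM in RYGB HFD. Sham HFD mice were all below both chow groups, and the 2 mice with adipocyte transcripts lay within the range of their group. Angptl4 fell in Sham Chow vs. Sham HFD (log2 fold change -0.73 ± 0.15 (SE), adjusted p = 0.00182). Between the HFD groups the value was 0.35 ± 0.15 (SE), adjusted p = 0.118, and 0.44 with an adjusted p of 0.0459 without RYGB HFD replicate 3. In RYGB Chow vs. RYGB HFD it was -0.41 ± 0.15 (SE), adjusted p = 0.14, and -0.59 with an adjusted p of 0.013 without RYGB HFD replicate 5.

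Some mice were at the end of their group's range for many of the genes. The same counts over all tested genes are not given here, so they cannot be called particular to the 45 genes. Sham Chow replicate 2 was the highest of its group for 27 of the 45 genes, among them 12 mitochondrial, 6 peroxisomal and 5 Cyp4a or Acot genes. Sham Chow replicates 1 and 3 were the lowest for 22 and 18 genes. On HFD after RYGB, replicate 1 was the lowest for 27 genes, 6 of them Cyp4a or Acot genes, and replicate 5 was the highest for 19, also including 6 Cyp4a or Acot genes. In Sham HFD, replicate 1 was the lowest for 25 genes. Without Sham Chow replicate 2, the genes rising in Sham Chow vs. Sham HFD numbered 8 instead of 4. The share of all tested genes rising in that fit is not given here, so the 8 cannot be set against it.

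Other genes of the pathway were tested in the same fit. Acat1, the mitochondrial acetoacetyl-CoA thiolase, rose in Sham Chow vs. Sham HFD (0.43 ± 0.071 (SE), adjusted p = 0.000261) and fell in Sham HFD vs. RYGB HFD (-0.35 ± 0.071 (SE), adjusted p = 0.0021). Bdh2 fell in the former (-1.03 ± 0.20 (SE), adjusted p = 0.000931).

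Of 19 other oxidation genes tested, 5 rose and 5 fell in Sham Chow vs. Sham HFD, 3 rose and 3 fell in Sham HFD vs. RYGB HFD, and 1 rose in RYGB Chow vs. RYGB HFD, and the interaction was positive for 2 and negative for 0. Of 16 other PPARA targets, 1 rose and 4 fell in Sham Chow vs. Sham HFD, and 4 rose and 2 fell in Sham HFD vs. RYGB HFD, with 3 positive and 1 negative interactions and 1 gene falling in RYGB Chow vs. RYGB HFD. Over all tested genes the shares that passed were the 21.6%, 16.4%, 3.65% and 5.06% given for these contrasts. The largest fold changes among these were those of Cyp4a12b, Cyp4a12a and Ucp2. Cyp4a12b, a further omega-hydroxylase with a close paralog in Cyp4a12a, fell in Sham Chow vs. Sham HFD (-5.28 ± 0.66 (SE), adjusted p = 1.69e-05) and rose in Sham HFD vs. RYGB HFD (4.02 ± 0.65 (SE), adjusted p = 0.000236). Its levels ran from 32.9 to 120.1 CPM in Sham Chow, 0 to 5.91 CPM in Sham HFD and 12.8 to 38.4 CPM in RYGB HFD. With 1 Sham HFD mouse at 0, these fold changes are imprecise, and they were -6.44 and 5.17 without the 2 Sham HFD mice. Among 9 relatives and partners of the receptor, 1 rose and 1 fell in each of these comparisons. Pparg, the adipogenic relative of PPARA, rose with HFD after sham surgery (0.62 ± 0.15 (SE), adjusted p = 0.00571) and fell in Sham HFD vs. RYGB HFD (-0.61 ± 0.15 (SE), adjusted p = 0.00657). Without the 2 Sham HFD mice with adipocyte transcripts both calls held (0.66, adjusted p = 0.0179, and -0.66, adjusted p = 0.018).

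Markers of other cell types moved in the same comparisons. Over all tested genes, 10.9% rose and 10.7% fell in Sham Chow vs. Sham HFD, and 8.54% rose and 7.9% fell in Sham HFD vs. RYGB HFD. The interaction was negative for 2.58% and positive for 2.48% of them. The 5 stellate cell and fibroblast markers (Col1a1, Col3a1, Dcn, Lrat and Reln) all rose in Sham Chow vs. Sham HFD, where they summed to 126 to 213 CPM in Sham Chow and 301 to 355 CPM in Sham HFD, and 3 of 5 fell in Sham HFD vs. RYGB HFD (187 to 276 CPM in RYGB HFD), with a negative interaction for 3. Of 5 macrophage markers, 4 rose in Sham Chow vs. Sham HFD, where they summed to 76.4 to 216 CPM in Sham Chow and 205 to 283 CPM in Sham HFD. In Sham Chow vs. RYGB Chow, 0 of these 5 passed. All 5 were higher at an unadjusted p under 0.05, where 5.7% of all tested genes were, with log2 fold changes from 0.79 to 1.28. Their interaction passed for 0 and was negative for 4 at that unadjusted p, where 10.2% of all tested genes were negative. Of 5 endothelial markers and 1 tested cholangiocyte marker, 0 passed in edgeR. At an unadjusted p under 0.05 there was 1 endothelial marker in each comparison with Sham HFD and the 1 cholangiocyte marker between the RYGB groups. Of all tested genes, 17.8% were higher at that p between the sham groups, 14.4% lower between the HFD groups and 9.81% higher between the RYGB groups. Of 5 hepatocyte markers, 3 fell in Sham Chow vs. Sham HFD, while 4 rose and 1 fell in Sham HFD vs. RYGB HFD. The interaction was positive for 1 of them. None of the hepatocyte, stellate cell and macrophage markers was at 0 in any mouse. Their part in the changes of the oxidation genes was not tested.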

How the data were processed

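Liver RNA of 20 mice was sequenced as paired 150-base reads from a stranded poly-A library. The authors trimmed reads with Trimmomatic 0.36, checked them with FastQC, aligned them to mm10 with HISAT2 2.1.0 and deposited whole-number counts per Ensembl gene made with featureCounts 1.5.0-p3, without normalization. The annotation release, the strand setting and the handling of reads that fit several genes are not given in the sources used here. Symbols and positions came from GENCODE M21 (GRCm38). The 45 genes, the lists and the tests were chosen with earlier results of these data known.

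From the counts, 12289 genes reached 2 CPM in 3 or more mice and entered edgeR 4.0.16 (quasi-likelihood test, TMM, R 4.3.3), fitted as 1 model of the 4 groups. P-values were two-sided, adjusted by Benjamini and Hochberg across those genes, with a threshold of 0.05. Exact permutation tests used log2(CPM + 0.5), two-sided. TMM factors ran from 0.916 to 1.13. PCR reads carry no molecular identifiers, so depth covers counting error only. Replicates were separate mice, numbered in the labels, and no batch is given. No 2 columns were identical (0 pairs).

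All 45 genes could be named. Values in every mouse are given for Ppara, Cpt1a, Acadm, Ehhadh, Cyp4a10, Cyp4a14, Vnn1, Pdk4, Angptl4 and the 2 genes per location with the largest change among those passing in each comparison. Of the other lists, at most 3 genes per comparison are named, and some results are not reported here. Acot2, its ratio to Acot1, and the Acaa1b to Acaa1a ratio were chosen after their values were seen. Shared windows are 100-base stretches of a gene's transcripts that occur exactly in another gene. Alternatives were DESeq2 1.42.0, limma-voom (limma 3.58.1), RLE and library size scaling, no filter (at least 1 count), a CPM minimum of 5, fits of 2 groups alone, a replicate block, each mouse left out, and, chosen after seeing the data, both Sham HFD mice with foreign transcripts or Acot3 left out. Medians were also taken without Acad11, Crat, Ech1 and Eci2, which belong to more than 1 location, and without genes that share reads with close paralogs.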

Additional observations from a re-analysis of the deposited data

Results flagged for a closer look

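Among 80 groups of 5 mice (20 genes in 4 groups), 8 had 1 mouse whose gap to the next took up more of the group's range than Dixon's critical value of 0.71 allows, where chance gives about 1 in 20 groups. The highest mice were those for Pdk4 (21.6 CPM) and Vnn1 (257 CPM) in Sham Chow, both replicate 2, for Hadh in Sham Chow (376.5 CPM, replicate 4), for Ehhadh (953 CPM) and Cyp4a31 (57.0 CPM) in RYGB Chow, both replicate 3, for Hsd17b4 in RYGB Chow (559.6 CPM, replicate 1) and for Decr2 in Sham HFD (298 CPM, replicate 2). The lowest was Cpt1a in Sham Chow (641 CPM, replicate 3).

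The HFD effect in RYGB mice differed from that in sham mice for 4 genes by the interaction test. The difference was -0.42 for Hadh, -2.23 for Pdk4, -0.42 for Hsd17b4 and -0.82 for Acaa1b on the log2 scale.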

How the results depend on the processing

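Of the summary values under the alternatives, 855 stayed within 1.5 times (counts) or 1 SD between mice (medians) and 69 moved. Between the RYGB groups, 1 gene rose, and 2 did so with DESeq2 (3.25% of all tested genes). The number was 0 without the filter (0.553%), with 2 groups alone (0.765%) or without the 2 Sham HFD mice (1.61%). There 1 gene fell, against 4 with DESeq2 (2.86% of all tested genes) and limma-voom (1.47%). The number was 2 without the filter (0.553%) and with 2 groups alone (0.732%), and 0 without the 2 Sham HFD mice (1.57%). Between the HFD groups, 1 gene rose with limma-voom (8.42% of all tested genes), and 12 fell with library size scaling (12.2%) and 11 with 2 groups alone (9.96%). Between the sham groups, 10 rose with library size scaling (18.5% of all tested genes). Negative interactions numbered 2 without the filter (0.866% of all tested genes) and 1 without the 2 Sham HFD mice (1.78%). Library size scaling put the median of all genes at 0.12 between the sham groups, -0.083 between the HFD groups and -0.13 for the interaction. With it, the medians of the 45 genes were 0.17 between the sham groups and -0.23 for the interaction, those of the mitochondrial genes -0.19 between the HFD groups, 0.19 between the sham groups and -0.22 for the interaction, and that of the peroxisomal genes -0.25 for the interaction. Without Cyp4a10, Cyp4a31, Cyp4a32, Acot1 and Acot2, the Cyp4a and Acot medians were -0.39 between the HFD groups, 0.19 between the sham groups and -0.50 for the interaction, and without Acot3 too, an alternative chosen after seeing the data, -0.17, -0.020 and, between the RYGB groups, -0.33. With 1 mouse left out, rising genes ranged from 0 to 1 between the chow groups, 2 to 5 between the HFD groups, 3 to 8 between the sham groups and 0 to 1 between the RYGB groups, falling genes from 0 to 5 between the RYGB groups, and negative interactions from 1 to 6. The Cyp4a and Acot median between the HFD groups ranged from 0.052 to 0.50. Shares of all tested genes are not given for these fits, so the counts cannot be set against them. Values near 0, none of them called, changed sign. With library size scaling, Cpt1a was 0.014 between the chow groups and -0.0047 for the interaction, and Ehhadh -0.020 between the HFD groups. Without the 2 Sham HFD mice, Ehhadh was -0.0088 and Ppara 0.014 between the HFD groups. With 1 mouse left out, Acadm ranged from -0.041 to 0.053 between the chow groups and from -0.023 to 0.0081 between the RYGB groups. Between the chow groups, Angptl4 ranged from -0.063 to 0.13, Cyp4a10 from -0.028 to 0.22 and Vnn1 from -0.053 to 0.55, and Vnn1 from -0.10 to 0.20 between the RYGB groups. Between the HFD groups, Ehhadh ranged from -0.064 to 0.19 and Ppara from -0.11 to 0.034. The causes were not tested.

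For mice with the same replicate number, correlations of their deviations ran from -0.257 to 0.16 over 30 pairs (median -0.0112, and 0.00115 for different numbers). Correlations over all genes cannot exclude a pairing that touches few genes, and the labels name no pairing. A replicate block gave 0 falling genes between the RYGB groups (1.33% of all tested genes) and 2 negative interactions (1.99%). It lost the calls of Acot1 between the HFD groups (0.96, adjusted p = 0.0533), of Pex11a between the RYGB groups (-0.70, adjusted p = 0.0582) and the interactions of Hadh (-0.42, adjusted p = 0.08) and Pdk4 (-2.35, adjusted p = 0.0651). The call counts over all genes in Sham Chow vs. RYGB Chow were 6 higher and 1 lower with edgeR and 66 and 26 with DESeq2.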
